A study of Mus musculus with 6 samples.

Results

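The genes described here build fatty acid chains and put double bonds into them. They are 10 genes given by symbol, all found once among the 54532 genes of the count table, and all 10 passed the filter on low counts. Acly and Acss2 make acetyl-CoA, Fasn codes for the fatty acid synthase, and Elovl1, Elovl5 and Elovl6 code for elongases. Scd1 and Scd2 code for stearoyl-CoA desaturases, and Fads1 and Fads2 for the desaturases of polyunsaturated fatty acids.

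The comparison was of PP with PA/OA in AML12 cells, a hepatocyte line first derived from mice carrying a human TGF-alpha transgene and labelled WT in this series. The 3 PP libraries came from cells given PP for 24 h, at 250 µg/ml per the design text, and the labels do not spell out PP. The 3 PA/OA libraries came from cells given the modelling reagent for 24 h, PA at 400 nM and OA at 800 nM in the submitters' units. The labels of the PP libraries name PP alone, and the study's design description can be read with or without PA/OA in the PP medium. Untreated cells were not analysed here. No label says that replicates were separate cultures, so the p-values reflect spread among replicate libraries that may be technical only.

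Fatty acid synthesis starts in the cytosol, where ATP citrate lyase (Acly) splits citrate and the acetyl-CoA synthetase Acss2 activates acetate. Acetyl-CoA carboxylase turns acetyl-CoA into malonyl-CoA, and the synthase (Fasn) joins these units into palmitate. In the endoplasmic reticulum, elongases lengthen palmitate and dietary fatty acids, and desaturases insert double bonds with electrons passed on by cytochrome b5. In liver this programme is driven by the transcription factors SREBP-1c, LXR and ChREBP, and polyunsaturated fatty acids are known to damp it.

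Total counts were 27418502 to 32560589 in PP libraries and 24113169 to 26825673 in PA/OA libraries. The 20 most abundant genes took 11.3% to 11.7% of counts in PP libraries and 9.24% to 9.40% in PA/OA libraries. Of 8 hepatocyte markers, 7 reached 1 CPM (counts scaled by library size and TMM factor to a common total) in some library, but albumin mRNA (Alb) was low, at 9.90 ± 1.38 CPM in PP and 12.2 ± 1.36 CPM in PA/OA (SD, n = 3 each). The hepatocyte markers went both ways: Apob averaged 75.8 ± 9.68 CPM in PP and 246 ± 5.93 CPM in PA/OA, and Hnf4a 26.8 ± 1.54 CPM in PP and 71.7 ± 5.06 CPM in PA/OA. Krt18 averaged 1729.9 ± 93.7 CPM in PP and 975 ± 12.1 CPM in PA/OA. The bile duct keratin gene Krt19 stood at 3513 ± 206 CPM in PP and 2011 ± 60.3 CPM in PA/OA, while Epcam had no count in any library. The summed level of 4 macrophage and blood markers was 26.6 to 29.5 CPM in PP and 3.13 to 3.79 CPM in PA/OA, almost all of it Cd68, and the defining marker Adgre1 had no count. The summed level of 3 fat cell markers was 8.16 to 8.94 CPM in PP and 1.61 to 2.56 CPM in PA/OA, almost all of it Fabp4, and Adipoq had 2 counts, all in PP replicate 2. The part of these shifts in the results below was not tested.

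Among these 10 genes, the mRNAs of the 4 desaturase genes were higher in PP and those of 4 of the 5 chain-building genes were lower, with TMM scaling. Scd1, Scd2, Fads1, Acss2 and, with directions that flipped under 2 other scalings, Fads2 and Elovl5 rose, and Fasn, Elovl6, Acly and Elovl1 fell, each past the 0.05 threshold of edgeR's quasi-likelihood test after Benjamini-Hochberg adjustment over 15718 genes. The counts of 6 higher and 4 lower among 10 stand beside 35.1% higher and 39.9% lower among all genes tested, and all 10 passed the test where 75.0% of all genes did. The PP and PA/OA values did not overlap for any of the 10, which also held for 77.4% of all genes tested. The median log2 fold change (PP minus PA/OA) was 0.89 over the 4 desaturase genes and -0.43 over the 5 chain-building genes Fasn, Acly, Elovl1, Elovl5 and Elovl6, against -0.09 over all genes tested. All 4 desaturase genes were in the highest of 5 bands of abundance, where the median over protein-coding genes was 0.51. With each library's trend with abundance removed, Fads1 was not called (0.045), Scd2 stood at 0.20 and Scd1 at 1.156. Only mRNA was measured, and in these bulk libraries fewer cells of a kind and less RNA per cell cannot be told apart.

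**Figure D1:**
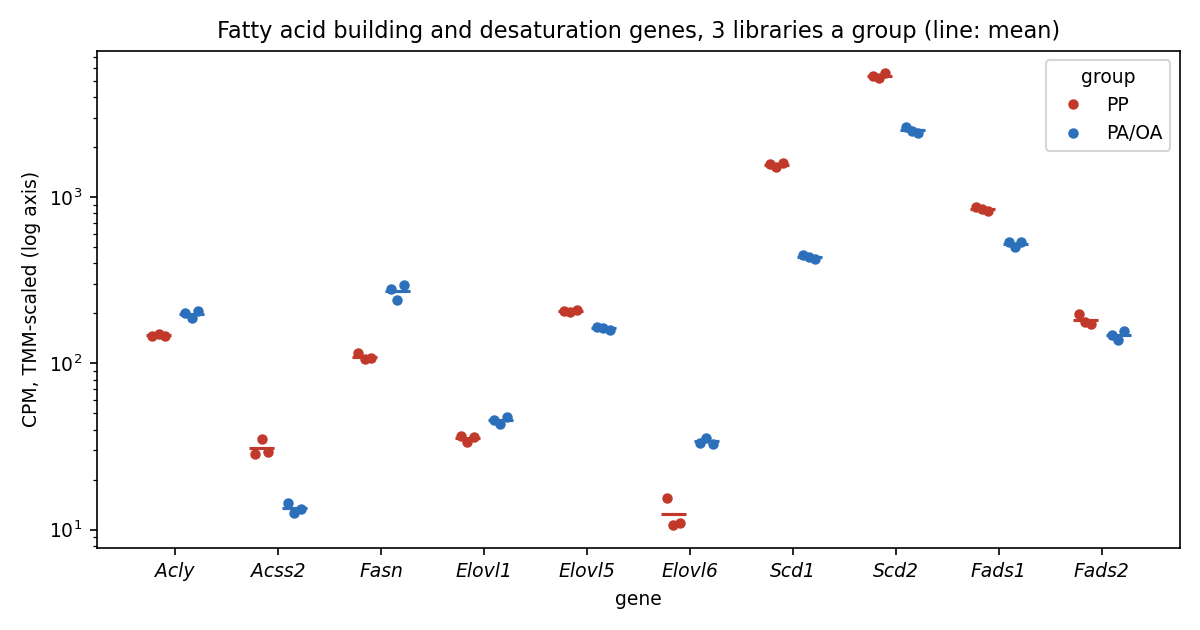
TMM-scaled CPM on a log axis for each of the 10 genes in the 3 PP libraries (red) and the 3 PA/OA libraries (blue), with lines at group means. PP points lie above PA/OA points for the 4 desaturase genes, Elovl5 and Acss2, and below them for Acly, Fasn, Elovl1 and Elovl6.

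Fasn, which codes for the enzyme that builds palmitate from acetyl-CoA and malonyl-CoA on 1 polypeptide, lies on chromosome 11 (120805846 to 120824547, minus strand, build mm10). It stood at 115, 106 and 107 CPM in PP replicates 1 to 3, against 281, 239 and 297 CPM in PA/OA replicates 1 to 3. The 3 PP libraries lay close together and below every PA/OA library, where replicate 2 was the lowest. The log2 fold change was -1.31 ± 0.07 (SE; adjusted p = 1.28e-13, edgeR), and the level in PA/OA was 2.49 times that in PP.

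Of the acetyl-CoA genes, Acly and Acss2 went opposite ways. Acly (chromosome 11, 100476353 to 100528000) stood at 146, 150 and 147 CPM in PP libraries and 201, 189 and 207 CPM in PA/OA libraries. It fell by 0.43 on the log2 scale (SE 0.05; adjusted p = 3.26e-07, edgeR). Acss2 (chromosome 2, 155517948 to 155585724) stood at 28.4, 35.0 and 29.5 CPM in PP libraries and 14.5, 12.6 and 13.4 CPM in PA/OA libraries. Every PP library held more Acss2 mRNA than any PA/OA library, higher by 1.20 ± 0.10 on the log2 scale (adjusted p = 9.02e-10, edgeR). Exons of Acss2 share 395 bases with Gss, 197 with Ggt7 and 335 with Acss2os on the opposite strand, so its counts are uncertain where strand was not used. Gss held 674 to 765 counts in PP libraries and 624 to 748 in PA/OA libraries, and Ggt7 held 91 to 140 and 46 to 62 counts in the same order of groups. Within a library, the ratio of Acss2 to Acly counts was 0.209 ± 0.021 in PP and 0.0679 ± 0.0041 in PA/OA (SD, n = 3 each).

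Of the 3 elongase genes, Elovl6 and Elovl1 fell. Elovl6 (chromosome 3, 129532355 to 129638495), which extends palmitate to stearate and so supplies the main substrate of the stearoyl-CoA desaturases, stood at 15.6, 10.6 and 11.0 CPM in PP libraries and 33.2, 35.8 and 32.8 CPM in PA/OA libraries. PP replicate 1 was the highest of its group and still lay far below every PA/OA library. Its log2 fold change was -1.46 ± 0.12 (adjusted p = 3.20e-10, edgeR). Elovl1 (chromosome 4, 118428093 to 118432953), which acts on saturated and monounsaturated very long chains, stood at 36.7, 33.9 and 35.9 CPM in PP libraries and 45.8, 43.1 and 47.9 CPM in PA/OA libraries. It fell by 0.36 (SE 0.08; adjusted p = 0.00021, edgeR), and shares 53 exonic bases with Cdc20 on the opposite strand, which held 615 to 786 counts in PP libraries and 366 to 413 in PA/OA libraries.

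Elovl5 (chromosome 9, 77917364 to 77984519), the elongase of polyunsaturated fatty acids, was the one member of its family here that was higher, at 206, 204 and 211 CPM in PP libraries and 165, 164 and 159 CPM in PA/OA libraries. Its log2 fold change was 0.35 ± 0.05 (adjusted p = 2.93e-06, edgeR), and this direction depended on the scaling, as given further on. The ratio of Elovl5 to Elovl6 counts within a library was 13.2, 19.2 and 19.2 in PP replicates 1 to 3, against 4.96, 4.57 and 4.85 in PA/OA replicates 1 to 3. PP replicate 1 stood apart from the other two PP libraries in this ratio, yet lay above all PA/OA libraries.

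Of the 4 desaturase genes among the 10, Scd1 and Scd2 changed more than Fads1 and Fads2. Scd2 (chromosome 19, 44293676 to 44306864) ranked 9 in abundance among the 15718 genes tested. It stood at 5315, 5185 and 5544 CPM in PP libraries and 2644, 2482 and 2414 CPM in PA/OA libraries, which is higher by 1.09 ± 0.05 on the log2 scale (adjusted p = 4.30e-14, edgeR). Scd1 (chromosome 19, 44394451 to 44407709), the main desaturase gene of adult mouse liver, stood at 1573, 1507 and 1596 CPM in PP libraries and 448, 439 and 423 CPM in PA/OA libraries. No PP value came near a PA/OA value, and the difference was 3.57-fold, or 1.84 ± 0.05 on the log2 scale (adjusted p = 8.48e-18, edgeR). With TMM scaling this was the largest change of the 10 genes, whereas with library size only Scd1 stood at 1.40 and Elovl6 at -1.89.

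The share of Scd1 in the pair shifted, with 0.296, 0.291 and 0.288 Scd1 counts per Scd2 count in PP libraries and 0.170, 0.177 and 0.175 in PA/OA libraries. The SD within a group was 0.0040 in PP and 0.0039 in PA/OA, and library scaling does not enter such a ratio. The longest coding transcript of Scd1 shares 3.03% of its 50-base windows with that of Scd2 and 3.49% with that of Scd3, and counts over such stretches are uncertain between these genes. Scd3 itself was lower in PP, at 8.44 ± 1.62 CPM in PP and 21.7 ± 2.51 CPM in PA/OA (log2 fold change -1.37 ± 0.13; adjusted p = 5.94e-09, edgeR), and so moved against Scd1 and Scd2.

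The polyunsaturated desaturase genes lie close to each other on chromosome 19 and moved less. Fads1 (10182888 to 10196870), which codes for the delta-5 desaturase, stood at 867, 850 and 825 CPM in PP libraries and 538, 502 and 535 CPM in PA/OA libraries. It rose by 0.69 ± 0.05 (adjusted p = 6.71e-11, edgeR). Fads2 (10064164 to 10101503), which codes for the delta-6 desaturase, stood at 197, 177 and 172 CPM in PP libraries and 149, 138 and 157 CPM in PA/OA libraries. Its groups came closest of the 4 desaturase genes, differing by 0.30 ± 0.06 on the log2 scale (adjusted p = 0.000194, edgeR). Fads2 was counted over a model of 1508 bases, where GENCODE M21 gives 3295 exonic bases, so reads from exons outside the model would not be in its count. Fads1 counts per Fads2 count were 4.67 ± 0.23 in PP and 3.55 ± 0.13 in PA/OA (SD, n = 3 each), with no overlap.

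**Figure D2:**
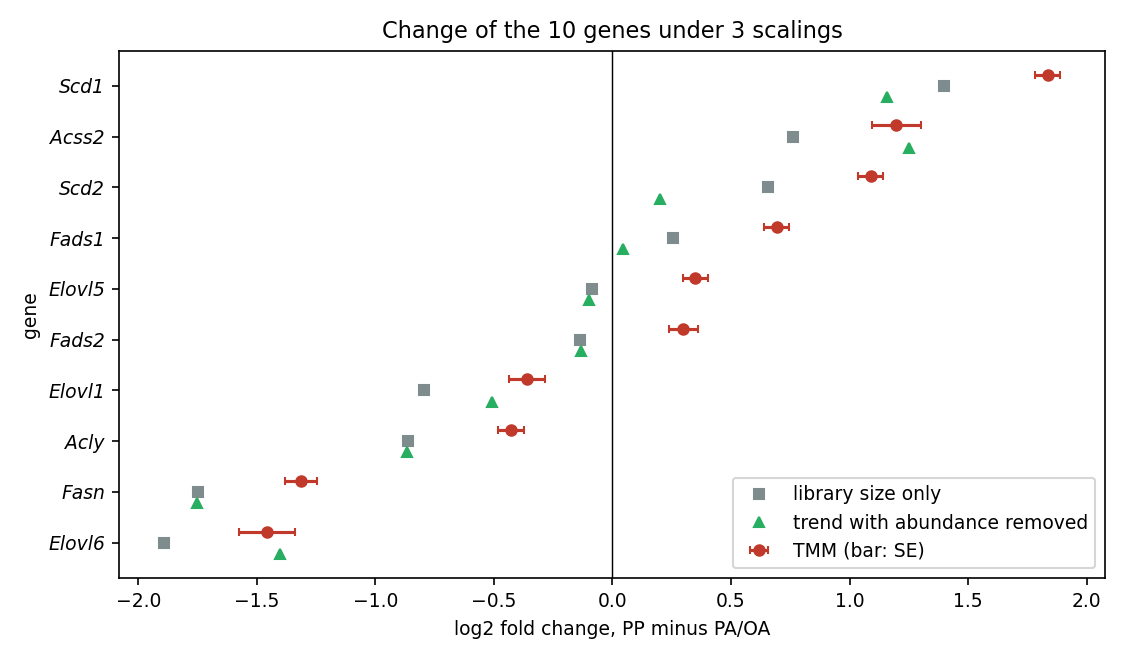
Log2 fold change (PP minus PA/OA) of the 10 genes, largest at the top, with TMM scaling (circles, bars SE), with library size only (squares) and with each library's trend with abundance removed (triangles). Elovl5 and Fads2 cross 0 under the other 2 scalings, while Scd1, Acss2 and Scd2 stay above it and Elovl1, Acly, Fasn and Elovl6 below it.

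Fold changes depended on how libraries were scaled, and the directions of Elovl5 and Fads2 with them. Without TMM, scaling by library size alone shifted the median over all genes by -0.43, Elovl5 stood at -0.085 (adjusted p = 0.138, edgeR) and Fads2 at -0.14 (adjusted p = 0.0595, edgeR), both without a call. Genes also moved with abundance: among protein-coding genes in the highest of 5 equal bands of abundance the median log2 fold change was 0.51 and 70.5% were higher, against -0.79 and 12.8% in the lowest band. Scd1, Scd2, Fads1, Fads2, Elovl5, Fasn and Acly were all in the highest band. The changes of Elovl5 and Fads2 were thus below the median of their band, that of Fads1 was 0.69 beside 0.51, and Fasn and Acly fell where most genes rose. With that trend removed from each library, Fads1 stood at 0.045 (adjusted p = 0.432, edgeR), Scd2 at 0.20 (adjusted p = 0.00194, edgeR) and Scd1 at 1.156, Fasn at -1.75 and Acly at -0.87. Transcript length showed no such trend, with medians of 0.0021 to 0.083 over 5 bands of gene length.

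**Figure D3:**
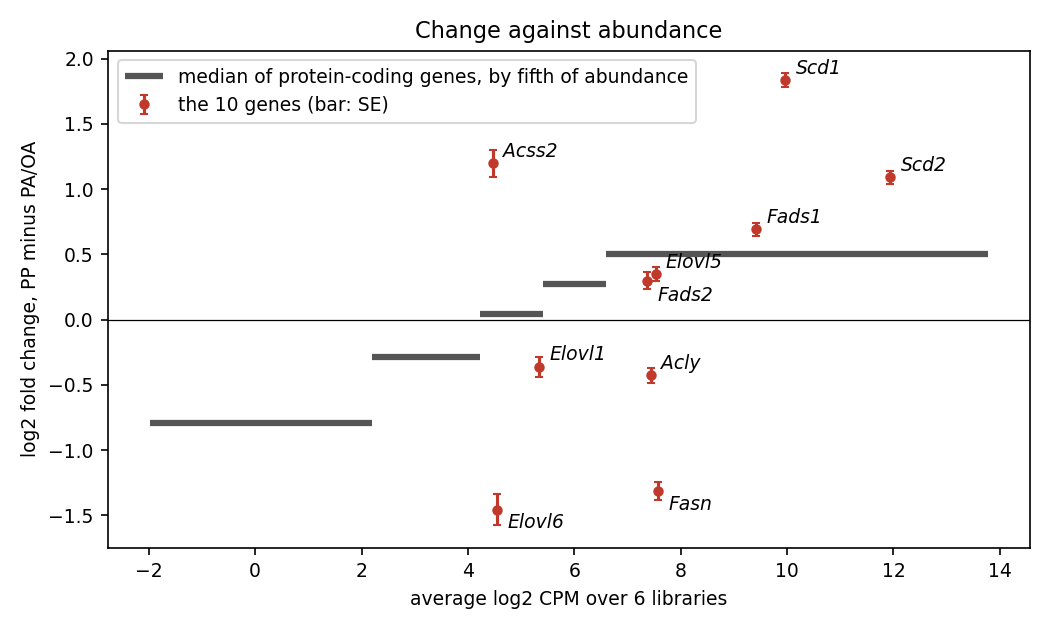
Log2 fold change (PP minus PA/OA) against average log2 CPM for the 10 genes (red, bars SE), with grey lines at the median of protein-coding genes in each of 5 bands of abundance. The medians run from -0.79 in the lowest band to 0.51 in the highest, Fads1, Elovl5 and Fads2 lie near the last line, and Scd1 and Fasn lie far above and below it.

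The contrast between desaturation and chain building can be read inside a single library, where scaling cancels. The mean log2 of counts per kilobase over Scd1, Scd2, Fads1 and Fads2, minus that over Fasn, Acly, Elovl1, Elovl5 and Elovl6, was 4.50, 4.58 and 4.57 in PP replicates 1 to 3. It was 2.96, 2.94 and 2.90 in PA/OA replicates 1 to 3. The group means differed by 1.62, and the SD within a group was 0.04 in PP and 0.03 in PA/OA. A gene's own trend with abundance does not cancel in this difference. The desaturase genes held 93.5% to 93.8% of the counts of the 10 genes in PP libraries and 82.35% to 83.9% in PA/OA libraries. Fasn held 1.29% ± 0.06 of them in PP and 6.26% ± 0.64 in PA/OA (SD, n = 3 each), and Scd1 held 18.4% ± 0.13 and 10.05% ± 0.26 in the same order of groups.

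Single pairs differed in how far apart the groups lay. Those with Scd1 set the gene that rose most with TMM scaling against Fasn and Elovl6, which fell most. They do not measure the contrast over both sets of genes. Scd1 exceeded Fasn per kilobase 31.0, 32.1 and 33.7 times in PP libraries and 3.61, 4.15 and 3.23 times in PA/OA libraries. Scd1 exceeded Elovl6, the elongase gene one step before it, 134, 188 and 193 times in PP libraries and 17.9, 16.3 and 17.2 times in PA/OA libraries. In the polyunsaturated branch the ratios differed by pair. Fads1 counts per Elovl5 count were 4.22, 4.16 and 3.92 in PP libraries and 3.26, 3.07 and 3.37 in PA/OA libraries, with no overlap. Fads2 counts per Elovl5 count were 0.958, 0.866 and 0.815 in PP libraries and 0.905, 0.842 and 0.988 in PA/OA libraries, with overlapping ranges. Fads2 and Elovl5 act at neighbouring steps, since Elovl5 lengthens the product of the Fads2 desaturase.

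**Figure D4:**
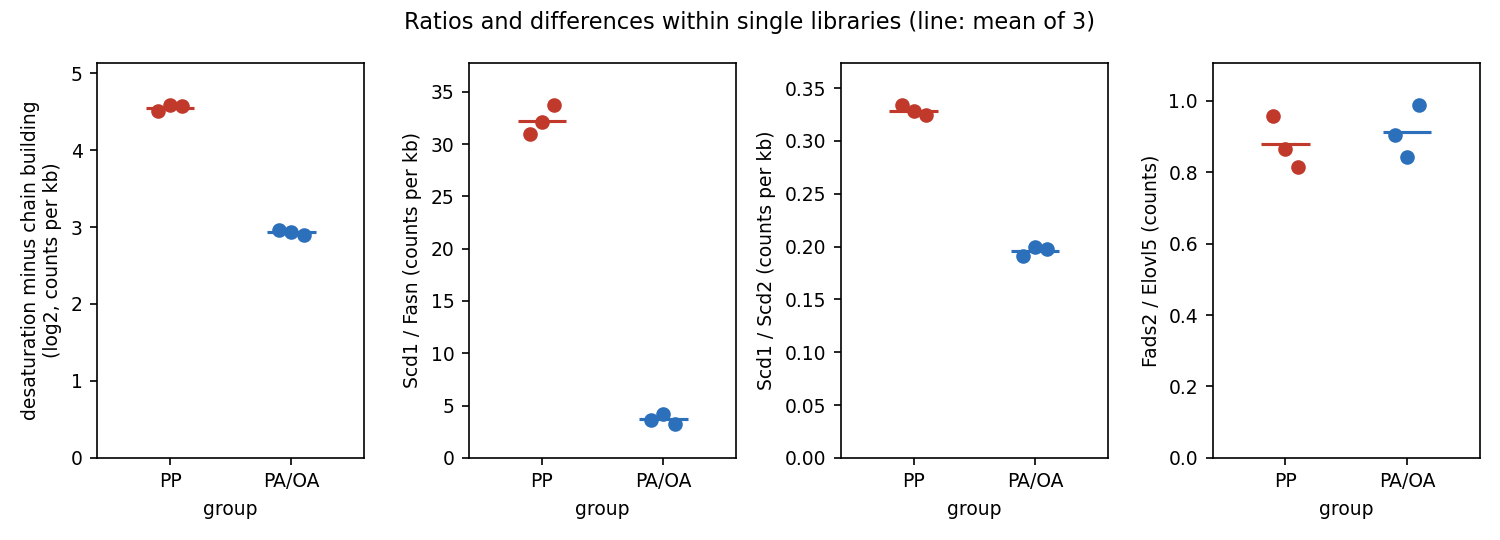
Quantities computed inside each library for PP (red) and PA/OA (blue), with lines at group means: desaturation minus chain building (log2, counts per kilobase), Scd1 over Fasn and Scd1 over Scd2 (counts per kilobase), and Fads2 over Elovl5 (counts). The first 3 separate the groups, at 4.50 to 4.58 in PP against 2.90 to 2.96 in PA/OA for the first, and the last overlaps between groups.

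Levels can be compared between genes per kilobase of gene model. In PP the order was Scd2 (981 ± 33.3 CPM per kilobase), Scd1 (322 ± 9.53), Fads1 (245 ± 6.06), Fads2 (121 ± 8.88), Elovl5 (58.7 ± 0.97), Acly (28.0 ± 0.39), Elovl1 (13.0 ± 0.53), Fasn (10.01 ± 0.43), Acss2 (3.04 ± 0.35) and Elovl6 (1.93 ± 0.43), each with its SD over 3 libraries. No neighbours in this order had overlapping ranges. In PA/OA, Scd2 was also the highest (461 ± 21.7 CPM per kilobase), and Fads1 (152 ± 5.77), Fads2 (98.0 ± 6.39) and Scd1 (90.3 ± 2.62) came next. Fads2 and Scd1 were the one pair of neighbours whose ranges overlapped. There Elovl5 (46.1 ± 0.90), Acly (37.7 ± 1.76), Fasn (24.9 ± 2.71), Elovl1 (16.7 ± 0.89), Elovl6 (5.28 ± 0.26) and Acss2 (1.33 ± 0.10) followed. Between the groups Scd1 took rank 2 in PP and 4 in PA/OA, Fasn 8 and 7, and Acss2 9 and 10. Acss2 is listed over a model of 10163 bases while its longest coding transcript has 2931, so its level per kilobase may be understated. Over the longest coding transcript of every gene, Fads2 took rank 5 in both groups, with Elovl5 at 4, and Scd1 took rank 3 in PA/OA.

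Promoters from RefSeq are shown for Fasn and Elovl6, which fell most, and for Acss2 and Elovl5, which rose (Elovl5 not under every scaling). Of the 10 genes, 7 had a promoter in the table used, with 8 promoters in all, and Scd1, Scd2 and Fads1 had none. Each run covers 250 bases before to 50 after the start, on the gene's strand, in build GRCm38.p6, and capitals mark matches on either strand to CCAAT, the box of that name bound by NF-Y, to the GC box GGGCGG, bound by SP1, and to the E-box CACGTG.
Fasn, chr11:120824498-120824797, minus strand: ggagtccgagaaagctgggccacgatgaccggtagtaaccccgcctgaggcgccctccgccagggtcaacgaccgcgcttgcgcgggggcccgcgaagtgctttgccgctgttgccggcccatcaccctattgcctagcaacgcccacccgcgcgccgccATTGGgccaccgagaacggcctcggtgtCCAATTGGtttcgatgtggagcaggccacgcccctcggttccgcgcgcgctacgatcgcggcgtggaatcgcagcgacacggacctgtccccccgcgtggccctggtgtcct
Elovl6, chr3:129532136-129532435, plus strand: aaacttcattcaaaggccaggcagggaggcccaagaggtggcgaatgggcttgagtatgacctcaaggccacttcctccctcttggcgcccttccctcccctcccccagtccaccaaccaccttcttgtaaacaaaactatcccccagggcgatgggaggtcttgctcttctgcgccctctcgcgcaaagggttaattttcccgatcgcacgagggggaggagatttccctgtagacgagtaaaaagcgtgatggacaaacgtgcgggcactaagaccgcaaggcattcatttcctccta
Acss2, chr2:155517793-155518092, plus strand: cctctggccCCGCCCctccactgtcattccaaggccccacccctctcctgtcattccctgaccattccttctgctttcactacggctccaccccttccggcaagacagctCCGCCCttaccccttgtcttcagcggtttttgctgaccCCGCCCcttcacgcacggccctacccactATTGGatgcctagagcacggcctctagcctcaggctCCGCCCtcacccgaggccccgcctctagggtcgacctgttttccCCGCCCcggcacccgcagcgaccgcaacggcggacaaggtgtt
Elovl5, chr9:77917115-77917414, plus strand: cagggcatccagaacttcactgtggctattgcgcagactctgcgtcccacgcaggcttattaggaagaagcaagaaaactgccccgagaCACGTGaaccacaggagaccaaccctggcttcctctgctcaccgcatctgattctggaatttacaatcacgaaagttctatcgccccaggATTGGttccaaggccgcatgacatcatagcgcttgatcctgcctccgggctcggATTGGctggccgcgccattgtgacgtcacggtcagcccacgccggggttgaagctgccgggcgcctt

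The Fasn promoter held CCAAT boxes 90, 62 and 59 bases before the start, the last pair overlapping each other, and no GC box. The Elovl6 promoter held no match to any motif searched. The Acss2 promoter held 5 GC boxes and a CCAAT box 73 bases before the start. The Elovl5 promoter held CCAAT boxes 71 and 17 bases before the start and an E-box 161 bases before it. Over the 8 promoters, 5 held a CCAAT box, 5 a GC box and 1 an E-box, where 37.4%, 35.7% and 7.15% of 32851 promoters of this length did. Both Elovl1 promoters held a GC box, so that gene counts more than once among the 5. The sterol regulatory element of the LDL receptor gene (0.0913% of all promoters), its part CACCCCAC (2.87%), a perfect LXR direct repeat (0.0152%) and TATAAA (13.6%) had no match in the 8. With shares as low as those of the element and the repeat, no match in 8 promoters is the usual outcome. Inexact forms of these motifs were not searched, so the lack of a match does not show that such sites are absent. CCAAT boxes stood in promoters of Fasn, Acly and Elovl1, which fell, and of Acss2 and Elovl5, which rose (Elovl5 with TMM scaling). The match of Acly lay 37 bases after the start, not before it.

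Of the other genes of the pathway, 45 in 7 lists, 40 were tested, of which 18 rose, 15 fell and 7 did not pass. Among all genes tested, 35.1% were higher and 39.9% lower, and the counts of each list below stand beside the same shares. Their median log2 fold change was 0.02, against -0.09 over all genes. The genes of the acetyl-CoA carboxylases went opposite ways. Acaca, of the cytosolic form, fell, at 69.3 ± 1.25 CPM in PP and 167 ± 8.47 CPM in PA/OA (SD, n = 3 each). Acacb, of the form at the mitochondrial surface, rose by 1.161 ± 0.34, at 2.33 ± 0.33 CPM in PP and 1.04 ± 0.46 CPM in PA/OA, a call lost when only library size was scaled for (0.73; adjusted p = 0.0568, edgeR). Slc25a1, the mitochondrial citrate carrier gene, stood at 123, 126 and 126 CPM in PP libraries and 37.2, 34.9 and 42.1 CPM in PA/OA libraries, and rose by 1.72 ± 0.07, whereas Acly, which acts on that citrate, fell. Of 7 genes supplying malonyl-CoA, citrate and NADPH, 5 rose, 1 fell (Acaca) and 1 did not pass (Pgd, 0.05, but -0.38 with library size only). The NADPH-forming malic enzyme gene Me1 stood at 1.21, G6pdx at 0.65 and Idh1 at 0.42, or -0.014 with library size only. G6pdx shares 418 exonic bases with Ikbkg on the opposite strand, so its counts are uncertain.

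Elongation runs in a cycle in which Hsd17b12, the Hacd dehydratases and Tecr complete what an elongase starts. Of these 6 genes, 3 rose, 2 fell and 1 did not pass. Hsd17b12 (0.51 ± 0.06) and Tecr (0.49 ± 0.06) rose, at 164 ± 5.20 CPM in PP against 115 ± 5.53 CPM in PA/OA for Hsd17b12. Neither was called with library size only (log2 fold changes of 0.075 and 0.052) or with the trend with abundance removed (0.11 and 0.029). Hacd2 rose by 0.27 (-0.17 with library size only), and Hacd3 (-0.16) and Hacd4 (-1.31) fell. Hacd4 averaged 0.419 CPM in PP and 1.06 CPM in PA/OA and shares 746 exonic bases with Focad, which held 909 to 986 counts in PP libraries and 1072 to 1227 in PA/OA libraries. The fall of Hacd3 was not called without PP replicate 1 (-0.12), without PP replicate 2 (-0.13) or with no filter on low counts (-0.15). That of Hacd4 was not called with the trend with abundance removed (-0.082), or without PP replicate 1 (-0.93), PP replicate 2 (-1.24) or PA/OA replicate 2 (-1.01). Of the other elongase genes, Elovl2, Elovl3 and Elovl4 had no count in any library, and Elovl7 (-0.12; adjusted p = 0.273, edgeR) did not pass.

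The remaining desaturase genes did not follow Scd1 and Scd2. Of 4, 3 fell (Scd3, Fads6 and Fads3), Scd4 was not past the test, and the median was -0.82. Scd4 stood at -0.79, or at 0.51 with the trend with abundance removed, without a call in either. Fads6 was not called with the trend with abundance removed (-0.41 beside -0.86). Fads3, the remaining gene of the Fads cluster on chromosome 19, stood at 421, 426 and 416 CPM in PP libraries and 477, 461 and 502 CPM in PA/OA libraries, that is, -0.19 ± 0.05 on the log2 scale (adjusted p = 0.00245, edgeR). The genes that pass electrons to the desaturases were split, with 3 higher and 2 lower of 5 (1 higher and 4 lower with library size only). The reductase gene Cyb5r3 rose by 0.88 ± 0.06 and Cyb5a by 0.24 (-0.19 with library size only), while Cyb5b fell by 0.28 and Cyb5r1 by 0.69. Mitochondrial fatty acid synthesis, a separate pathway that makes the lipoic acid precursor, had 4 genes lower of 5 tested, with Oxsm at -1.57 ± 0.16, and Ndufab1 (-0.01) did not pass.

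**Figure D5:**
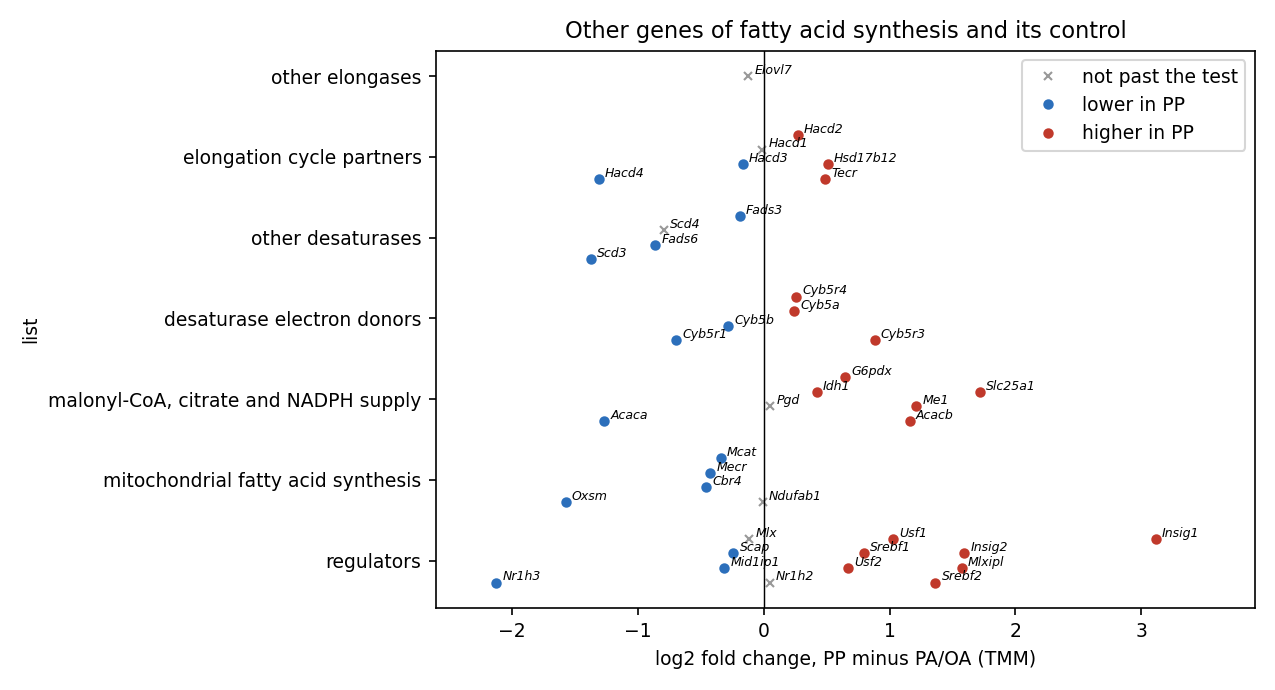
Log2 fold change (PP minus PA/OA, TMM) of the 40 tested genes in 7 lists, with red points higher in PP, blue points lower and grey crosses not past the test. Insig1 and Slc25a1 lie farthest to the right in their lists, and Nr1h3, Oxsm, Scd3 and Acaca farthest to the left in theirs.

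Genes of the known controllers moved apart as well. Of 12 tested regulators, 7 rose, 3 fell and 2 were not past the test, and the median was 0.73. Nr1h3, which codes for the liver X receptor LXR-alpha, fell to 4.25, 3.58 and 3.67 CPM in PP libraries, against 17.5, 14.6 and 17.9 CPM in PA/OA libraries (log2 fold change -2.12 ± 0.15; adjusted p = 1.48e-11, edgeR). Srebf1, which codes for SREBP-1, rose by 0.79 ± 0.06 and Srebf2 by 1.36 ± 0.05. Srebf1 shares 109 exonic bases with Rai1 on the opposite strand, so its counts are uncertain; Rai1 held 1659 to 2068 counts in PP libraries and 4057 to 4785 in PA/OA libraries. Insig1, a sterol-responsive gene that restrains SREBP processing, rose by 3.11 ± 0.06. Mlxipl, which codes for ChREBP, rose by 1.57 ± 0.33 at 2.55 ± 0.46 CPM in PP and 0.855 ± 0.27 CPM in PA/OA (SD, n = 3 each). Thrsp, a lipogenic gene of liver, held no count in PP libraries and 4, 4 and 2 counts in PA/OA libraries, and was not tested.

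Over the 6 libraries, the genes of the 10 and the 7 lists most like Fasn were Nr1h3 (Pearson r = 0.998), Acaca (0.995) and Acly (0.994), as a description of log2 CPM. Most like Scd1 were Scd2 (0.998), Insig1 (0.998) and Me1 (0.997). With 2 groups that lie far apart, any gene that differs between them gives an r near 1 or -1, so these values say mostly that the direction was shared. Among all genes tested, Irf2bp1 and Zfp276 were among those nearest to Fasn, at root mean square distances of 0.037 and 0.047 in centred log2 CPM. Creg1, Mxi1 and Herpud1 lay nearest to Scd1, at 0.022, 0.037 and 0.038.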

How the data were processed

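RNA sequencing of 6 AML12 libraries was used, 3 labelled PP and 3 labelled PA/OA, grouped by the treatment label. The table the authors deposited gives unnormalized counts by gene, made with featureCounts on build mm10, per the submitters' processing notes, which also name DESeq2 1.16.1 without a role. The aligner, the annotation, the strand setting, and whether mRNA was selected by poly(A) or by removing rRNA were each not given in the sources used here. Gene lengths, in bases, were taken from the same table. Totals ran from 24113169 to 32560589 counts. Among genes with 1 to 20 counts, 57.1% to 61.5% held an even count.

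The analysis used edgeR 4.0.16 under R 4.3.3. Genes kept by filterByExpr (15718 of 54532) were scaled with TMM and tested by a quasi-likelihood F-test (glmQLFit then glmQLFTest). P-values are two-sided and Benjamini-Hochberg adjusted over all genes tested, with a threshold of 0.05. The SE is the log2 fold change divided by the square root of F. The test was checked on simulated counts in which few genes changed, unlike the 75.0% called here, so the check does not cover the scaling. Alternatives were other scalings (library size only, DESeq2 size factors, upper quartile), other filters, DESeq2 1.42.0, limma-voom (limma 3.58.1), a replicate block, protein-coding genes only, halved counts, removal of each library's lowess trend with abundance (span 0.4), and leaving out each library. Halved counts of replicate libraries gave a chi-square of 3.15 to 5.04 per gene, above sampling noise, so each library was kept as 1 replicate. Promoters came from RefSeq (GRCm38.p6) and exon overlaps and transcripts from GENCODE M21 (GRCm38). The 10 genes, the 7 lists of other pathway genes and the likeness rule were chosen with earlier results of these data known. All 10 genes and the listed genes were eligible to be named, and the text names those that carry a list's count. One gene that the likeness rule names is not reported here.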

Additional observations from a re-analysis of the deposited data

How the results depend on the processing

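Of the 10 genes, Fasn, Elovl6, Acly, Elovl1, Scd1, Scd2 and Acss2 kept their direction and their call under every alternative run. Elovl5 and Fads2 were lower, without a call, with library size only (-0.085 and -0.14) and with the trend with abundance removed (-0.10 and -0.13), and neither was called with upper-quartile scaling (0.11 and 0.061). Fads1 was not called with the trend removed, which left 3 of the 10 higher. With library size only, 3235 of all genes were higher and 8910 lower, and 11 of the other pathway genes were higher and 24 lower. There Hacd2 (-0.17), Cyb5a (-0.19), Cyb5r4 (-0.18), Idh1 (-0.014), Pgd (-0.38) and Nr1h2 (-0.39) changed sign. Of these, Cyb5a, Cyb5r4, Pgd and Nr1h2 were called lower (adjusted p = 0.00718, 0.0445, 1.18e-05 and 1.12e-05, edgeR), and Hacd2 and Idh1 were not called. Signs also changed for Pgd (-0.18) and Nr1h2 (-0.19) with upper-quartile scaling. With the trend removed, among genes called in either setting, they changed for Cyb5a (-0.11), Pgd (-0.36) and Nr1h2 (-0.27). Scd4 (0.51) and Hacd1 (0.14) also changed sign there, without a call in either setting. Upper-quartile scaling moved the median of all genes by -0.24. The cause was not tested.

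The difference between desaturation and chain building was 1.28 from summed counts per kilobase and 1.68 without Acly. Without division by length, 6 of the 10 genes kept their rank in PP and 5 in PA/OA. With the length of the longest coding transcript for every gene, 8 kept their rank in PP and 7 in PA/OA, and with that length only where it was below the table's, all 10 did in both groups. Both were chosen after seeing the data. Leaving out each library gave 5313 to 5485 genes higher and 6061 to 6452 lower, 6 and 4 of the 10 genes, 18 and 13 to 15 of the other pathway genes, and a difference of 1.61 to 1.65. Same-numbered libraries of the groups did not deviate together (correlations of 0.005, 0.003 and -0.023). With 3 libraries a group, these values cannot exclude that the numbers pair libraries, and no label says so. With the replicate block, 5427 genes were higher and 6088 lower, Fasn stood at -1.31 and Scd1 at 1.84, and the counts of 6 and 4 for the 10 genes and 18 and 15 for the other pathway genes did not change. Depth limits genes with few counts, such as Hacd4 (4 to 44 counts a library) and Scd4 (9 to 31).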
